A study of Caenorhabditis elegans with 3 samples.

Results

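The genes described here encode insulin-like peptides and the precursors of neuropeptides. They are the 115 protein-coding genes of the count table named ins, flp or nlp with a number, together with daf-28, out of 20362 protein-coding genes and 46739 genes in all. Their symbols divide them into 40 insulin-like genes (39 ins genes and daf-28), 31 flp genes and 44 nlp genes. The rule itself uses names and no measured value.

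The libraries hold RNA from dissected germlines of N2 worms, the wild-type laboratory strain of Caenorhabditis elegans. All 3 libraries belong to 1 group, without any treatment in the labels, and neither age nor sex is given. The study set out to find the transcription factors of the germline, so peptide genes were outside its stated aim. The labels do not say whether the numbered germlines came from separate animals or cultures, and the spread between libraries may therefore be technical.

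Insulin-like peptides are secreted ligands, and in the worm most of them are thought to act through a single receptor, DAF-2, as agonists or antagonists. This pathway is known to link food supply to larval arrest, lifespan and the growth of the germline. The flp genes encode precursors of FMRFamide-related peptides. The nlp genes form a mixed class, which includes neuropeptides as well as antimicrobial peptides of the epidermis. Precursors are cut by proprotein convertases, trimmed by carboxypeptidases, often amidated, and stored in dense core vesicles, mainly in neurons. Few of these genes have a described role inside the germline.

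Values are CPM, counts scaled to the library total. The totals lay between 14523486 and 16656171, so that 1 CPM stood for 14.5 to 16.7 reads. A gene was called detected at 1 CPM or more in each library. A count of 0, taken as fewer than 3 counts, allowed up to 0.207, 0.193 and 0.18 CPM in replicates 1, 2 and 3. These limits and the intervals of ratios below cover counting error only. All 10 markers of germ cells and oocytes were detected, as were 8 of 10 sheath and spermatheca markers, which belong to the somatic gonad. With 1 group there is no comparison between conditions, and no p-value is given.

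Most peptide genes lay below the detection limit in these libraries. Of the 115, 8 were detected (6.96%, 95% Wilson interval 3.57 to 13.1), where 40.2% of all protein-coding genes were detected. The interval treats the genes as independent draws, although the 115 are the whole named set, and it does not measure the spread between libraries. A further 10 reached 1 CPM in 1 or 2 libraries, 57 had counts that never reached it, and 40 had no count at all. The share without a count was 34.8% of the peptide genes and 22.9% of all protein-coding genes. The median over the peptide genes of the mean level was 0.0444 CPM, and over all protein-coding genes it was 0.612 CPM. None of these shares and medians is corrected for length. The median exon length was 520 bases for the peptide genes and 1166 bases over the protein-coding genes found in the annotation. The part of length in these differences was not tested. At most 10 counts over the 3 libraries together were found for 85 of the 115 peptide genes. In bulk RNA, fewer cells of a type and less RNA per cell cannot be told apart.

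**Figure D1:**
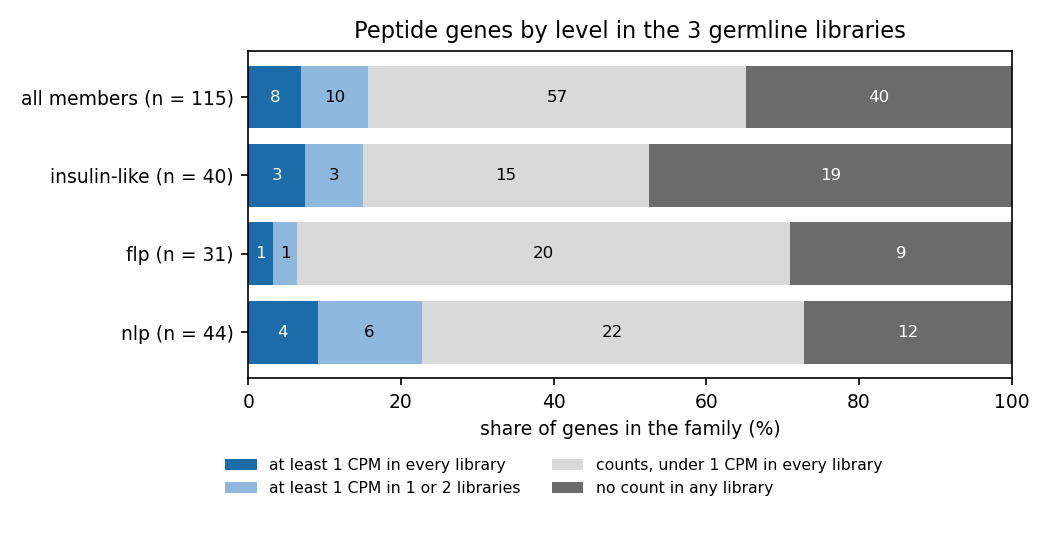
Share of genes (%, x axis) of each peptide family by level in the 3 libraries, with the number of genes printed in each segment. In each family the genes under 1 CPM or without a count make up most of the bar, and 8 of the 115 genes reached 1 CPM in every library.

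The detected genes were ins-5, ins-22, ins-23, flp-10, nlp-4, nlp-27, nlp-36 and nlp-40. By family these were 3 of 40 insulin-like genes (7.5%, 2.58 to 19.9), 1 of 31 flp genes (3.23%, 0.572 to 16.2) and 4 of 44 nlp genes (9.09%, 3.59 to 21.2). The intervals overlap widely, but they treat genes as independent draws and leave out counting error. Without replicate 2, 7 nlp genes passed. A level of 10 CPM in every library was reached by 2 peptide genes, ins-23 and nlp-36, and by 26.6% of all protein-coding genes. The whole set summed to 127.7, 69.6 and 82.6 CPM in replicates 1 to 3 (mean 93.3 ± 30.5, SD, n = 3). Insulin-like genes supplied 42.0% of the mean sum, nlp genes 52.6% and flp genes 5.38%. In replicate 2 the order of the first 2 was reversed, with 38.4 CPM for insulin-like and 26.6 CPM for nlp genes. The 3 genes with most reads, ins-23, nlp-4 and nlp-36, made up 52.7% of the mean sum.

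Among the insulin-like genes, ins-23 (WBGene00002106, chromosome III, 10028247 to 10028697 on WBcel235, plus strand) led. It had 284, 388 and 217 counts in replicates 1 to 3, or 19.6, 24.9 and 13.03 CPM (mean 19.2 ± 5.96, SD, n = 3). The libraries differed by a factor of 1.91, with replicate 2 highest and replicate 3 lowest. Counting error alone would give a coefficient of variation of 5.81%, against 31.1% observed.

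Its neighbour ins-22 (WBGene00002105, chromosome III, 10026289 to 10026686) had 6.68, 6.62 and 2.70 CPM. As for ins-23, replicate 3 was lowest, and the ratio of replicate 3 to replicate 1 was 0.405 for ins-22 (95% exact interval 0.278 to 0.582) and 0.666 for ins-23 (0.556 to 0.798). The third detected insulin-like gene, ins-5 (WBGene00002088, chromosome II, 5997557 to 5999023), ran the other way, with 2.27, 2.70 and 4.74 CPM and a ratio of replicate 3 to replicate 1 of 2.09 (1.37 to 3.24). These intervals treat the reads of both libraries as independent molecules, and they compare those libraries only.

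Another insulin-like gene, ins-37 (WBGene00002120, chromosome II, 13835101 to 13836107), missed the rule through 1 library. It had 230, 12 and 138 counts, or 15.8, 0.771 and 8.29 CPM. Replicate 2 stood at 0.0487 of replicate 1 (0.0248 to 0.0867), the lowest such ratio among the peptide genes with a mean of at least 1 CPM. In the Ensembl annotation an snRNA gene on the same strand covers 171 bases of its exons, and it had no counts. The genes ins-34 (0.964, 1.48 and 0.54 CPM) and ins-17 (0.275, 0.964 and 1.02 CPM) reached 1 CPM in 1 library each.

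Some of the insulin-like genes best described in DAF-2 signalling had few counts or none, namely daf-28, ins-1, ins-3, ins-4, ins-6, ins-7, ins-18 and ins-33. The dauer-inhibiting ligand gene daf-28 had 1, 1 and 0 counts. Its partners in the control of dauer arrest, ins-4 and ins-6, had none in any library, which allows a mean of up to 0.0642 CPM over the 3 libraries. The agonist gene ins-7, which acts in the intestine and in neurons, had 10, 4 and 4 counts (0.689, 0.257 and 0.24 CPM). The genes ins-3 and ins-33, whose products promote the growth of the larval germline, had 1, 0 and 0 and 2, 1 and 0 counts. Of the genes ins-1 and ins-18, whose products are described as antagonists, ins-1 had no count and ins-18 had 1 count in replicate 1 alone. The receptor gene daf-2 had 86.3, 91.6 and 111.3 CPM, and CPM here are not corrected for gene length.

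**Figure D2:**
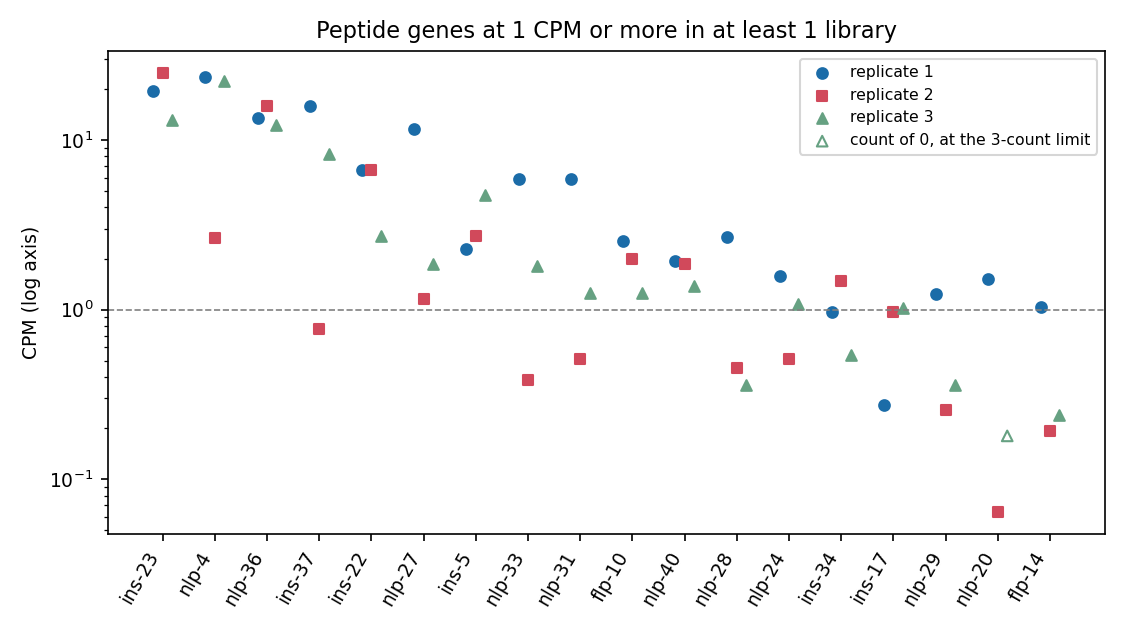
CPM (y axis, log scale) of the 18 peptide genes that reached 1 CPM in at least 1 library (x axis), with 1 point per library and a dashed line at 1 CPM. The open symbol is a count of 0, drawn at the 3-count limit of its library. The libraries lie close together for nlp-36 and nlp-40 and far apart for nlp-4, ins-37 and nlp-27. CPM are not corrected for length, so heights compare libraries and not genes.

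Among the 4 detected nlp genes, nlp-36 and nlp-40 differed little between libraries, while nlp-4 and nlp-27 differed widely. The gene nlp-36 (WBGene00007185, chromosome III, 9488731 to 9489186) had 13.5, 15.9 and 12.2 CPM (mean 13.9 ± 1.87, SD, n = 3), a factor of 1.30 between libraries. Its exons share 11 bases with dars-1 on the opposite strand, an aspartyl-tRNA synthetase gene at 301, 259 and 377.5 CPM. Since the strand setting is not given, reads in those bases cannot be assigned to either gene. The libraries followed another order for dars-1, which was highest in replicate 3, where nlp-36 was lowest. The part of dars-1 reads in the nlp-36 counts was not tested.

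The gene nlp-4 (WBGene00003742, chromosome I, 10517321 to 10518055) had 340, 41 and 369 counts, or 23.4, 2.63 and 22.2 CPM. Replicates 1 and 3 were level, with a ratio of 0.946 (0.814 to 1.10), while replicate 2 stood at 0.113 of replicate 1 (0.0793 to 0.156). The gene nlp-40 (WBGene00022276, chromosome I, 11495 to 16837) encodes a peptide released by the intestine that times defecation. It had 1.93, 1.86 and 1.38 CPM, and its coefficient of variation of 17.3% lay under the 19.4% that counting alone gives.

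Peptide genes of the epidermis formed the other group with reads. The genes nlp-29 and nlp-31 on chromosome V encode glycine-rich peptides that are induced in the epidermis by fungal infection and wounding. Here nlp-27 had 11.6, 1.16 and 1.86 CPM, nlp-31 had 5.85, 0.514 and 1.26 CPM, and nlp-33, elsewhere on the chromosome, had 5.92, 0.385 and 1.80 CPM. Lower levels were found for nlp-28 (2.69, 0.45 and 0.36 CPM), nlp-29 (1.24, 0.257 and 0.36 CPM) and nlp-30 (0.413, 0.0642 and 0.06 CPM). All 6 were highest in replicate 1, with replicate 2 at no more than 0.207 and replicate 3 at no more than 0.304 times its level. Other genes numbered from nlp-24 to nlp-34 did not share this pattern. The related gene nlp-24 had 1.58, 0.514 and 1.08 CPM. The counts were 0, 0 and 2 for nlp-25, 2, 0 and 2 for nlp-26, and 0, 0 and 3 for nlp-34, and nlp-32 had none.

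The only detected flp gene was flp-10 (WBGene00001453, chromosome IV, 7868907 to 7870081), which encodes a peptide known to inhibit egg laying. It had 37, 31 and 21 counts, or 2.55, 1.99 and 1.26 CPM. The ratio of replicate 3 to replicate 1 was 0.495 (0.275 to 0.868). The other flp gene to reach the limit in any library was flp-14, which passed 1 CPM in replicate 1 alone (1.03, 0.193 and 0.24 CPM), and flp-12 had 4, 12 and 9 counts. Of the 31 flp genes, 20 had counts under 1 CPM in every library and 9 had none, among them flp-11, which acts in sleep, and flp-18, a ligand of the receptor NPR-1. The table also held reads for nlp-20 in essentially 1 library (22, 1 and 0 counts). The CCK-like gene nlp-12 had 0.344, 0.771 and 0.66 CPM and nlp-15 had 0.757, 0.385 and 0.6 CPM.

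Close to the limit of 1 CPM, the lowest library of nlp-27, flp-10 and nlp-40 had 1.16, 1.26 and 1.38 CPM on the inside. On the outside, the lowest library of ins-37, ins-34 and nlp-31 had 0.771, 0.54 and 0.514 CPM. The call thus turned on 8 to 23 reads in the lowest library of these genes.

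Levels were compared between genes as CPM per kb of merged exons, since the precursors differ in length. On this scale ins-23 had 48.8 ± 15.2, nlp-36 39.5 ± 5.32 and nlp-4 25.1 ± 18.2 CPM per kb (SD, n = 3). These 3 lay above 22.2 CPM per kb, the median of the detected protein-coding genes. The other 112 peptide genes lay below it, led by ins-22 (15.8 ± 6.74), nlp-27 (15.5 ± 18.5), ins-37 (8.69 ± 7.89) and nlp-33 (7.86 ± 8.36 CPM per kb). Without replicate 1 the means of nlp-27, ins-37, nlp-33 and nlp-31 were 4.77, 4.74, 3.18 and 1.97 CPM per kb, that of nlp-28 was 1.21, and that of nlp-4 was 19.4, under the median, as it also was without replicate 3 (20.4). The next were nlp-31 at 5.64, ins-5 at 3.74 and nlp-28 at 3.48 CPM per kb.

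Few neighbours in this order were set apart by every library. The mean of ins-23 exceeded that of nlp-36 by 9.31 ± 10.1 CPM per kb, with ins-23 higher in 2 of 3 libraries. In each library nlp-36 was above nlp-4, by 1.70, 41.1 and 0.125 CPM per kb, differences that range from almost nothing to most of its level. The means of ins-22 and nlp-27 differed by 0.319 ± 16.6 CPM per kb, and ins-22 was higher in 2 of 3 libraries. Of the 12 steps among the 13 highest genes, that from nlp-36 to nlp-4 alone had the same sign in all libraries.

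**Figure D3:**
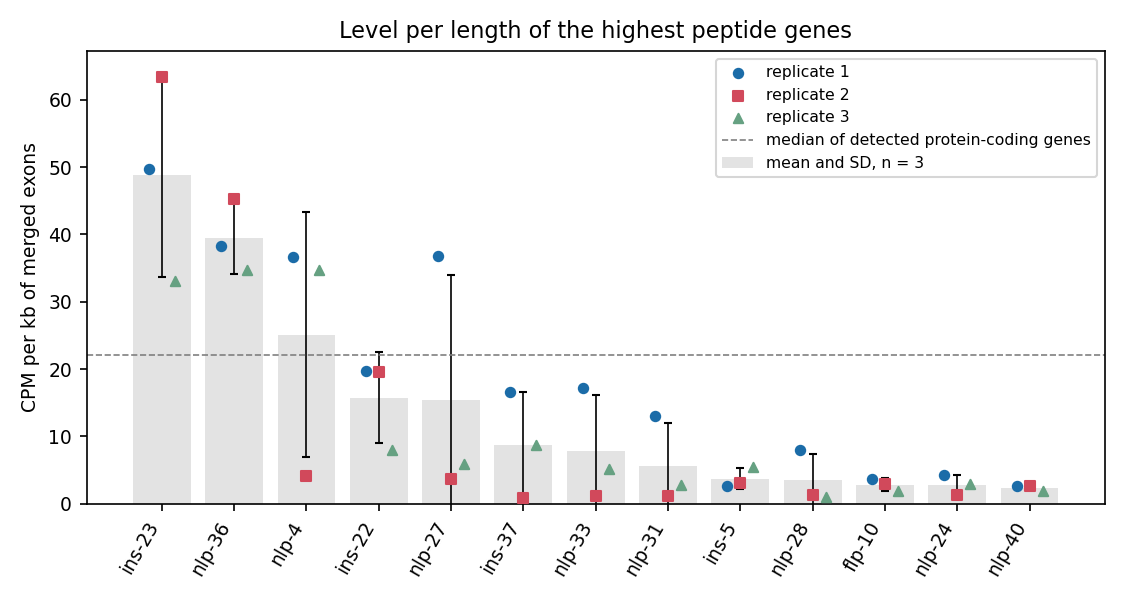
Level in CPM per kb of merged exons (y axis) of the 13 highest peptide genes by that measure, with bars at the mean, error bars for the SD (n = 3, cut at 0) and 1 point per library. The dashed line is the median of detected protein-coding genes, 22.2 CPM per kb, which the means of ins-23, nlp-36 and nlp-4 exceed.

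Peptide genes often lie side by side, and within these runs the levels differed from gene to gene. Of the 115 genes, 39 lay in 11 runs with at most 10 kb between consecutive members, of which 4 were detected and 17 had no count, beside 8 detected and 40 without a count among all 115. In the run of ins-21, ins-22 and ins-23, ins-21 had no count, although only 2080 bases separate it from ins-22 and 1560 bases separate ins-22 from ins-23. In the run of ins-2, ins-3, ins-4, ins-5, ins-6 and ins-20 on chromosome II, ins-5 was detected, and its direct neighbours ins-4 (548 bases upstream) and ins-6 (1412 bases downstream) had no count. The other members had 0, 0 and 3 counts for ins-2, 1, 0 and 0 for ins-3, and none for ins-20.

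The run from nlp-34 to nlp-27 on chromosome V was the only one of more than 3 genes without a member at 0, although nlp-34 had counts in replicate 3 alone. The run of 7 insulin-like genes on chromosome I (ins-24 to ins-30) held 5 genes without a count. On the X chromosome, none of 25 peptide genes was detected, where 32.8% of X-linked protein-coding genes were detected. Few were detected elsewhere too, 2 of 19, 1 of 23, 3 of 14, 1 of 14 and 1 of 20 on chromosomes I to V. No count was found for 14 of the 25, beside 6, 10, 4, 4 and 2 of the genes on chromosomes I to V. The share of all X-linked protein-coding genes without a count was not computed. The 25 X-linked genes include 13 of the 31 flp genes and 2 insulin-like genes.

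**Figure D4:**
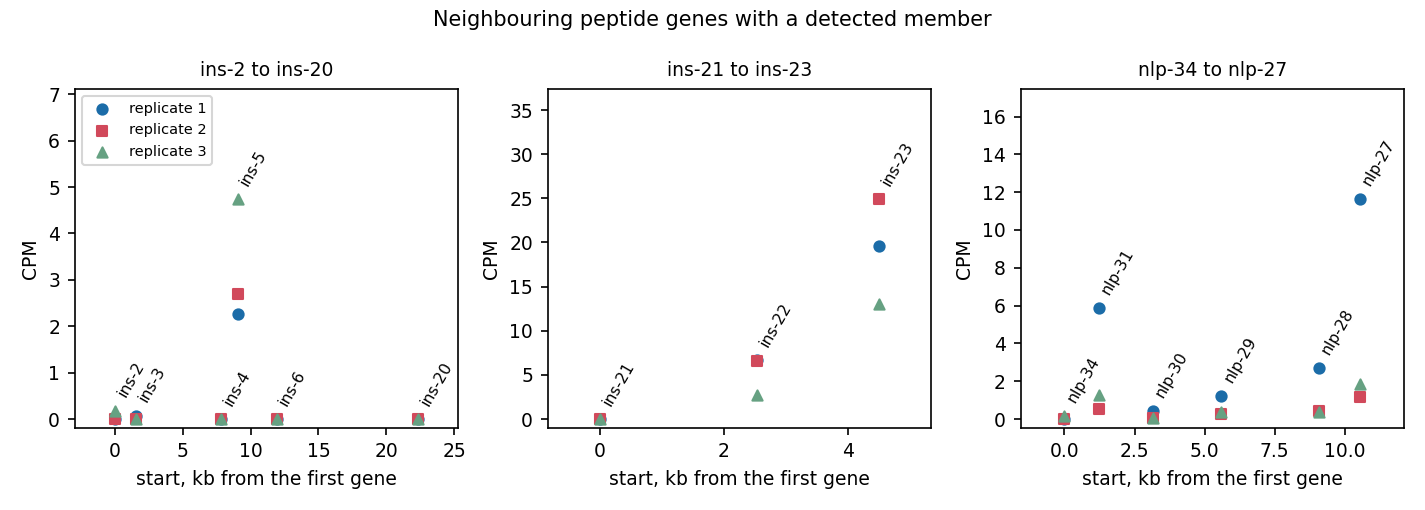
CPM per library (y axis) along the 3 runs of neighbouring peptide genes that hold a detected gene, against the start of each gene in kb from the first gene of the run (x axis). Points stand high at ins-5, at ins-22 and ins-23, and at nlp-27 and nlp-31 in replicate 1, and lie at 0 at ins-21, ins-4, ins-6 and ins-20. In the nlp run, nlp-28 and nlp-29 lie between, at 2.69 and 1.24 CPM in replicate 1.

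The libraries disagreed for most peptide genes with enough reads to judge. Among the 13 with a mean of at least 1 CPM, 10 differed by 2-fold or more between the highest and the lowest library. Over all protein-coding genes with such a mean the share was 25.1%, and over those between 1 and 20 CPM, where all 13 lie, it was 44.1%. The exceptions were ins-23, whose libraries differed by a factor of 1.91, nlp-36 and nlp-40. With other scalings of the libraries, 14 genes had such a mean and 11 (TMM or DESeq2 size factors) or 12 (protein-coding totals) of them differed by 2-fold, ins-23 among them, while ins-5 did not with the first 2 scalings, and nlp-36 and nlp-40 did not with any of the 3. In 7 of the 13, replicate 2 stood at or under 0.5 times replicate 1, which held for 26.3% of protein-coding genes in the range of 1 to 20 CPM. Replicate 1 was highest for 10 of the 13, beside 39.6% of that range. Replicate 2 was lowest for 6 of the 13, beside 42.8%, a share near the background. A mean of at least 1 CPM can come from 1 high library, and without replicate 1 the genes nlp-24, nlp-28 and nlp-31 would not reach it. Such genes are high in replicate 1 partly through the choice itself, and the background genes were chosen by mean too. These 13 genes were few, and genes of a run are not independent of each other.

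The 7 genes low in replicate 2 were nlp-4, ins-37, nlp-24, nlp-27, nlp-28, nlp-31 and nlp-33. Sperm markers and cuticle collagens moved between the libraries at the same time. All 11 sperm markers were highest in replicate 1 and lowest in replicate 2, with sums of 4450, 518.2 and 1346 CPM and ratios of replicate 2 to replicate 1 from 0.0746 to 0.13. The epidermal collagens col-19 and col-140, chosen after their values were seen, summed to 526.3, 39.2 and 101.6 CPM, ratios of 0.0745 and 0.193 for replicates 2 and 3 against replicate 1. For the 6 epidermal peptide genes nlp-27 to nlp-31 and nlp-33 the sums were 27.7, 2.83 and 5.70 CPM, ratios of 0.102 and 0.206. These 6 were not a planned group, and the few counts of nlp-25, nlp-26 and nlp-34 did not follow them. Of the 8 hypodermis and cuticle markers, which include nlp-29, 3 were detected (37.5%), near the 40.2% of all protein-coding genes. The 8 summed to 601.6, 112 and 190.7 CPM, most of which came from col-19 and col-140. The markers dpy-7, rol-6 and bli-1 were at or near 0. Other markers of this list did not follow the collagens, as lin-26 had 73.5, 72.3 and 83.6 CPM and sqt-3 had 0.207, 0.321 and 4.74 CPM. Body wall muscle markers summed to 534.5, 318 and 314.2 CPM, and 4 of the 5 were highest in replicate 1. The part of epidermal, muscle or sperm RNA in these values was not tested.

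The remaining 3, nlp-4, nlp-24 and ins-37, had higher ratios of replicate 3 to replicate 1 than those 6 genes, 0.946, 0.682 and 0.523. The highest such ratios of the sperm markers were those of fog-3 (1.45, 0.129 and 1.44 CPM) and peel-1 (8.61, 0.642 and 4.50 CPM), and the lowest was 0.24. Sheath and spermatheca markers summed to 813.9, 813 and 812.1 CPM in the 3 libraries, but single markers were not this even. The 2 highest ran in opposite directions, fln-1 with 459.9, 398.2 and 553.5 CPM and inx-8 with 230.5, 294.6 and 172.4 CPM. Germ cell and oocyte markers summed to 10145, 11176 and 12619 CPM.

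**Figure D5:**
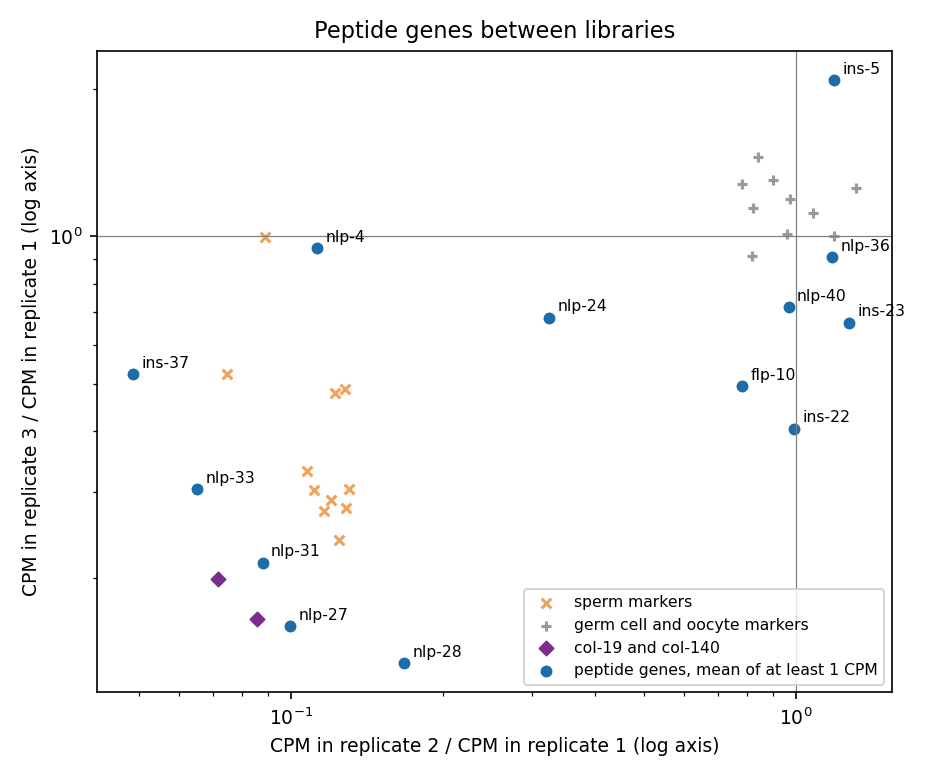
CPM in replicate 2 over replicate 1 (x axis, log scale) against CPM in replicate 3 over replicate 1 (y axis, log scale) for the 13 peptide genes with a mean of at least 1 CPM, the sperm markers, the germ cell and oocyte markers, and the collagens col-19 and col-140. The genes nlp-27, nlp-28, nlp-31 and nlp-33 lie at low ratios on both axes, as do the collagens, while nlp-4, nlp-24 and ins-37 lie low on the x axis and higher on the y axis.

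Neuronal genes were low as well. Of 15 neuron markers, 4 were detected (26.7%), where 40.2% of all protein-coding genes were detected. The 4 were snb-1 (33.6, 36.8 and 35.5 CPM), unc-119, ric-4 and unc-64, the last 3 between 1.67 and 4.95 CPM. The transmitter genes unc-17, eat-4 and unc-25 stayed under 1 CPM, and unc-47, tph-1 and tbb-4 had no count. The sums were 46.7, 50.8 and 48.6 CPM, most of it from snb-1, and single markers ran differently, such as unc-17 (0.138, 0.707 and 0.48 CPM) and unc-25 (0.207, 0.0642 and 0.961 CPM). Intestinal markers were detected in 5 of 8 cases (62.5%), yet ges-1 and elt-2 stayed under 1 CPM, and the sums were 297.2, 1072 and 551.1 CPM. The yolk genes vit-2 and vit-6 and the metallothionein gene mtl-2 were highest in replicate 2, whereas asp-1 (46.6, 23.1 and 8.89 CPM), act-5 (12.3, 6.75 and 10.8 CPM) and ifb-2 (3.30, 0.642 and 2.10 CPM) were highest in replicate 1. Of the other somatic marker lists, body wall muscle had 4 of 5 genes detected, the distal tip cell 2 of 4, and the pharynx and coelomocytes 0 of 4 and 0 of 3. The muscle marker that was not detected, hlh-1, had 1, 0 and 2 counts. The distal tip cell markers that were not detected, gon-1 and lag-2, had 4, 7 and 11 and 2, 1 and 11 counts. The part of neuronal or intestinal RNA in the peptide levels was not tested.

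Overlap with other genes touched few detected members. In the annotation, exons of 9 peptide genes overlapped a gene that was itself detected, all on the opposite strand. Besides nlp-36, these included ins-34, which shares 82 bases with nkcc-1 (295 CPM), and ins-10, which shares 74 bases with vps-39 (135.4 CPM). The others were flp-16, flp-19, nlp-17, nlp-26, nlp-41 and nlp-46. As counts on overlapping genes cannot be told apart without the strand setting, the low levels of ins-34 (46 counts in all) and ins-10 (16 counts) are uncertain. The genes flp-19 and nlp-41, which share 5 and 8 bases with abl-1 (12.9 CPM) and mog-4 (78.2 CPM), had no count.

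The genes that make, degrade and release peptides ranged from abundant to near 0. Of 12 processing genes, 7 were detected (58.3%), beside 40.2% of all protein-coding genes. They were led by the proprotein convertase gene bli-4 (167.7, 161.6 and 151.7 CPM), the neprilysin gene nep-1 (18.8, 16.7 and 18.7 CPM) and the carboxypeptidase gene cpd-1 (12.3, 13.7 and 9.01 CPM). The enzymes best known for neuropeptides were lower. The proprotein convertase gene egl-3 had 1.45, 1.03 and 0.18 CPM, the carboxypeptidase gene egl-21 had 3.17, 0.385 and 2.22 CPM, and sbt-1, whose product assists EGL-3, had 3.30, 1.22 and 1.14 CPM. The lowest of the list was the convertase gene aex-5 (0.275, 0.707 and 0.12 CPM).

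Of 19 dense core vesicle genes, 14 were detected (73.7%), beside 40.2% of all protein-coding genes. The highest were vps-51 (190.4, 289.6 and 208.8 CPM), the RAB-2 gene unc-108 (74.5, 74.4 and 79 CPM) and vps-53 (40.6, 49.9 and 54.8 CPM). All of these act in general vesicle traffic too. The release factor gene unc-31 had 3.37, 2.96 and 5.16 CPM. The vesicle membrane gene ida-1 stayed under 1 CPM, and cccp-1 was the lowest of the list. Of the 8 genes listed for insulin binding and secretion, 5 were detected (62.5%). The highest was imp-2 (186.7, 217.6 and 186.1 CPM), for which no insulin-binding role is claimed here, although it is counted among the 5 and the 8. Next came daf-2 and the G protein gene goa-1 (66.7, 77.2 and 70.4 CPM), with zig-3 at 0.

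Receptors of peptides were also rarely detected. Of 99 receptor genes, 8 were detected (8.08%) and 28 had no count. Over all protein-coding genes, 40.2% were detected and 22.9% had no count. The highest were egl-6 (13.7, 12.5 and 5.82 CPM), gnrr-2 (7.71, 8.29 and 7.74 CPM) and seb-2 (6.33, 4.56 and 7.56 CPM). EGL-6 is a receptor for the peptides of flp-10 and flp-17. The detected flp-10 and egl-6 were each highest in replicate 1 and lowest in replicate 3, and flp-17 had no count. This order was common, as it also held for ins-22 and nlp-40. Of the 8 detected peptide genes, 5 were highest in replicate 1 and 5 were lowest in replicate 3.

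Other known pairs were mostly below the limit on both sides; they were picked after the levels were seen. The NLP-40 receptor gene aex-2 had 0.757, 0.578 and 1.62 CPM. The NLP-12 receptor gene ckr-2 had 3, 2 and 33 counts and ckr-1 none. The receptor genes npr-1 and npr-12 had none and 1, 0 and 2 counts, beside their ligand genes flp-18, flp-21 and nlp-29. Of 7 further peptide hormone genes that were looked up, pdf-1 alone was detected, at 5.23, 5.40 and 1.26 CPM, with its receptor gene pdfr-1 at 0.964, 0.964 and 2.34 CPM. The oxytocin-like gene ntc-1 had 0.964, 0.385 and 0.48 CPM, and capa-1 had 0.62, 0.642 and 0.54 CPM. One of these genes, pdf-2, stands in the table as nlp-37 and is 1 of the 115, with a single count.

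The gene name reference gives nlp symbols to 31 further protein-coding genes, which the table lists under sequence names. None of these was detected, 14 had no count, and the highest value in any library was 0.78 CPM, for C38C10.6 (now nlp-48) in replicate 3.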

How the data were processed

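RNA of 3 dissected germline samples was measured. The kit named in the labels' protocols, SMART-Seq for ultra low input, amplifies whole transcripts. What the authors deposited are raw counts of reads for each gene in 1 column per library. STAR, featureCounts and the build WBcel235 stand in the submitters' processing notes. Not given in the sources used here are tool versions, strandedness and the treatment of multi-mapping reads. Counts of near-identical genes are therefore uncertain.

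CPM were computed on each column total (Python 3.11.15, pandas 2.3.3). The edgeR 4.0.16 TMM factors and DESeq2 1.42.0 size factors served as alternatives. Positions and merged exon lengths came from Ensembl release 115 on WBcel235, which held all 115 members. Intervals of ratios are exact (Clopper-Pearson, 95%), from scipy 1.17.1.

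The named genes were the detected insulin-like members, the highest other members, those varying 2-fold, those nearest the limit and members with known receptor roles, besides the extremes of each pathway list. A few others were named after their values were seen. The members and lists were chosen with earlier results of these data known. A planned comparison of precursor proteins was not run.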

Additional observations from a re-analysis of the deposited data

How the results depend on the processing

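The 8 detected peptide genes stayed 8 with TMM, DESeq2 size factors, protein-coding totals and, chosen after seeing the data, with genes matched by current symbol. They were 12 at 0.5 CPM and in 2 of 3 libraries, 9 at a raw count of 10, and 8 to 12 without 1 of the replicates. They were 2 at 5 or 10 CPM and 35 with any count in every library. For insulin-like genes the 3 detected became 5 at 0.5 CPM, 1 at 5 or 10 CPM and 8 with any count in every library. For flp genes the 1 became 0 at 5 or 10 CPM and 7 with any count. For nlp genes the 4 became 1 at 5 or 10 CPM, 7 in 2 of 3 libraries, 20 with any count, and 4 to 7 without 1 of the replicates, the 7 without replicate 2. Of the detected members, 2 were lowest in replicate 2, against 5 at 0.5 CPM and 0 at 5 or 10 CPM, and 5 differed 2-fold between libraries, against 9 at 0.5 CPM and 0 at 5 or 10 CPM. These changes follow from the number of genes that pass each minimum. The other 55 values of these counts and sums, and all 60 alternative levels per length, moved by at most 1.5 times for a count or less than 1 SD between libraries for a level. That SD exceeds the mean for nlp-27, nlp-33, nlp-31 and nlp-28. Leaving out 1 of 3 libraries cannot shift a mean by a whole SD, so those levels and sums were bound to pass. For nlp-27 the level went from 15.5 to 4.77 CPM per kb without replicate 1 and still passed. The longest transcript changed the length of ins-5 alone among these genes. The summed level was 76.1 to 105.1 CPM without 1 of the replicates. No paired analysis was possible because all libraries belong to 1 group. At 14.5 to 16.7 reads per CPM, levels under 0.2 CPM could not be told from 0.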
